A study of Mus musculus with 6 samples.

Results

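The heterochromatin genes described here are 10 genes, chosen by symbol from the 53686 genes of the count table: the histone H3 lysine 9 (H3K9) methyltransferase genes Suv39h1, Suv39h2, Setdb1, Ehmt1 and Ehmt2, the demethylase gene Kdm1a, the heterochromatin protein 1 (HP1) genes Cbx1, Cbx3 and Cbx5, and Lbr, the gene of the lamin B receptor. Poly-A RNA was sequenced from dissected olfactory epithelium of C57BL/6J mice in 6 libraries, 3 from mice hemizygous for 5x21-OR1A1, a transgene named for the human odorant receptor OR1A1, and 3 from wild-type mice. The series title puts the comparison under the study of odorant receptor choice, with a transgene that is highly represented. The labels give no age, no number of animals and no description of the construct, and they do not say whether libraries of a group come from separate animals or litters. The p-values therefore cover the variation seen among these 6 libraries, which may be technical in part. By Xist and Ddx3y counts, 5x21-OR1A1 libraries 2 and 3 and wild-type library 1 were female and the others male. Each group thus drew on animals of both sexes, while libraries of 1 sex within a group may still share an animal. Library totals were 27506217 to 35804712 counts.

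Each olfactory sensory neuron expresses a single odorant receptor gene, and the many receptor genes it does not use are packed in heterochromatin marked by methylated H3K9. The mark is set by methyltransferases, bound by HP1 proteins and removed by demethylases; in mouse olfactory neurons, transient activity of LSD1, the product of Kdm1a, is needed for a receptor gene to be switched on, and the methyltransferases G9a and GLP, the products of Ehmt2 and Ehmt1, take part in silencing the others. The lamin B receptor ties heterochromatin to the nuclear envelope and is scarce in olfactory neurons, whose receptor genes gather in foci in the interior of the nucleus.

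None of the 10 genes differed between 5x21-OR1A1 and wild-type tissue at an adjusted p under 0.05 in edgeR's quasi-likelihood test. All 10 passed the filter on low counts and were tested among 19267 genes, of which 2.71% were called, 0.519% higher and 2.20% lower in 5x21-OR1A1 tissue. The members' log2 fold changes, 5x21-OR1A1 over wild-type, ran from -0.09 for Suv39h2 to 0.28 for Ehmt1 with a median of 0.12, against 0.02 over all genes tested. The estimate was above 0 for 8 of the 10, as it was for 52.9% of all genes tested, and edgeR adjusted p ran from 0.167 to 0.970. DESeq2 and limma-voom also called 0 of the 10, as did edgeR with sex as a covariate. At an unadjusted edgeR p under 0.05 stood 2 members, Ehmt1 and Cbx5, both with higher values in 5x21-OR1A1 tissue, while 17.1% of all genes tested lay under that value and 7.48% did so with higher values. For the 8 members with over 350 counts in every library, the 95% intervals of the fold change, each taken alone, all lay between 0.873 and 1.41. A fold beyond that range lay outside the interval of each under TMM scaling, while scaling to cell markers gave other values. For Suv39h2 and Cbx3, under 150 counts in every library, the intervals together reached from 0.696 to 1.38. In bulk tissue, fewer cells of a type and less RNA per cell cannot be told apart, and this holds for each value here.

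**Figure D1:**
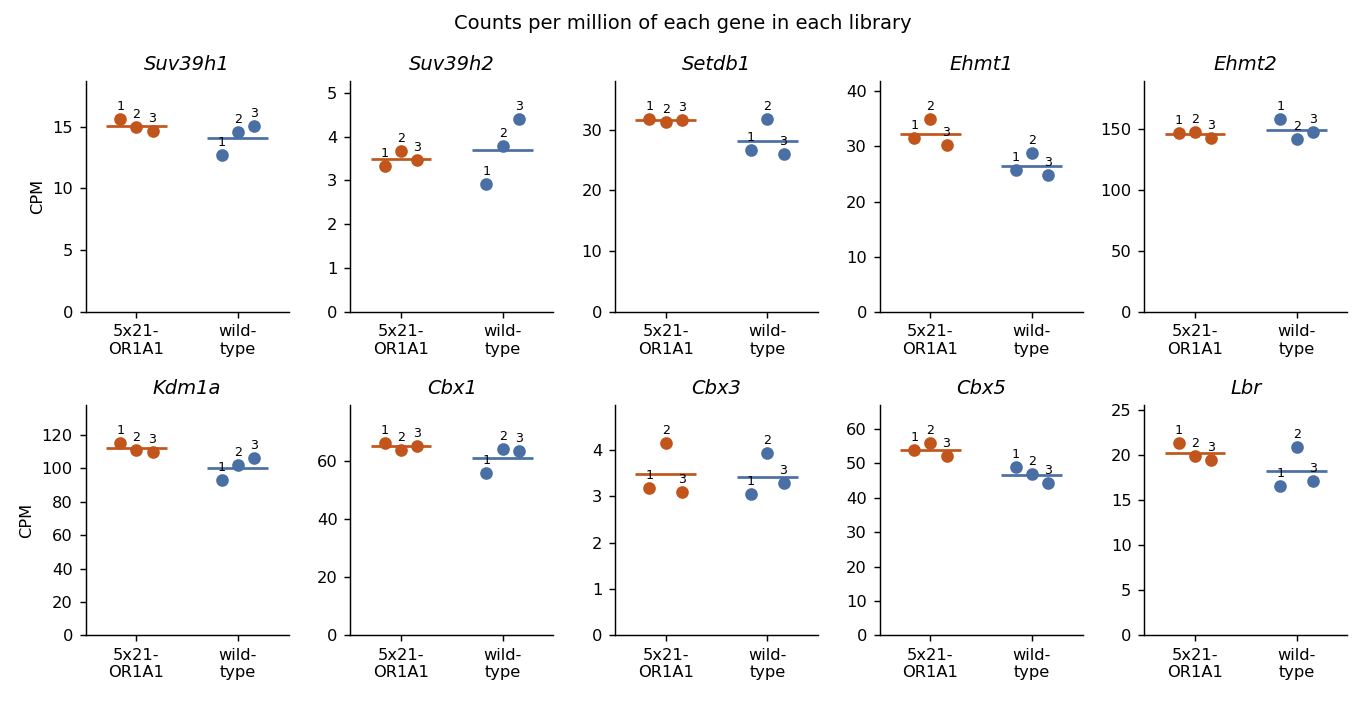
CPM (read counts scaled to a common library total with TMM) of each of the 10 genes in each library, on axes that start at 0; points carry the replicate number and bars are group means (n = 3 each). The groups were apart for Ehmt1, Kdm1a and Cbx5 and overlapped for the other 7 genes.

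Summed over the 10 genes, the level was 473 to 488 CPM in 5x21-OR1A1 libraries and 443 to 459 CPM in wild-type libraries. In 3 of the 10 genes, Ehmt1, Kdm1a and Cbx5, every 5x21-OR1A1 library lay above every wild-type library, as did 11.4% of all genes tested; in 0 of the 10 did every 5x21-OR1A1 library lie below, against 12.5% of all genes. The promoters of these 3 genes are shown because theirs are the values that stood apart, each as the 250 bases before a RefSeq start site of GRCm38.p6 on the minus strand, with capitals marking matches to the NRF1 motif or to the CCAAT box on either strand. The regions are chr2:24919610-24919859 for Ehmt1, chr4:136602724-136602973 for Kdm1a and chr15:103239853-103240102 for Cbx5.
Ehmt1: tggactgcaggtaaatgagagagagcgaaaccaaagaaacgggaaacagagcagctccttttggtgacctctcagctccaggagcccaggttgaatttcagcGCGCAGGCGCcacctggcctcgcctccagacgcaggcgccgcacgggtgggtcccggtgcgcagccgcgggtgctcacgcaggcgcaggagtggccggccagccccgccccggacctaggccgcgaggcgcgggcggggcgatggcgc
Kdm1a: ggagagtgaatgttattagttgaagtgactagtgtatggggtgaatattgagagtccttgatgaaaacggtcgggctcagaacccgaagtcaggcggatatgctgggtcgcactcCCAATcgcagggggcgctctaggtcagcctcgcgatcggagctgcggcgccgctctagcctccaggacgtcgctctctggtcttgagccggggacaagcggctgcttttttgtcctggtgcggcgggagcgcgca
Cbx5: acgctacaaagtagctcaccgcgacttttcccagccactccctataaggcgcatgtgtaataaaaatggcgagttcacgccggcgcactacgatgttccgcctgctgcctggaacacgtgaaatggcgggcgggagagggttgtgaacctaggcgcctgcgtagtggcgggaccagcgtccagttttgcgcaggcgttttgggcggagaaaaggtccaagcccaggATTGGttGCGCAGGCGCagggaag
The Ehmt1 window held 1 match to the NRF1 motif, the Kdm1a window 1 CCAAT box and the Cbx5 window shown 1 of each, and these 2 matches do not overlap. Cbx5 has a second RefSeq start site, whose window (chr15:103215353-103215602) held 0 matches to either. NRF1 is a transcription factor of many genes used by all cells, and the CCAAT box is the binding site of NF-Y. The RefSeq table gives 14 such windows for the 10 genes, of which 4, or 28.6%, held the NRF1 motif, 1 each of Suv39h1, Suv39h2, Ehmt1 and Cbx5. The motif was present in 6.45% of the 16633 windows of genes tested and in 3.74% of all 32851 windows. The CCAAT box was present in 5 of the 14 windows, or 35.7%, close to the 34.5% of windows of genes tested. Both motifs were chosen after the sequences had been read, and 2 of the 4 genes with the NRF1 motif, Suv39h1 and Suv39h2, had overlapping groups.

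Ehmt1 and Ehmt2 encode GLP and G9a, which act as a pair to set mono- and dimethylation of H3K9. Ehmt1 (chr2:24789928-24919614, minus strand of GRCm38) had 31.5, 34.9 and 30.3 CPM in 5x21-OR1A1 libraries, against 25.8, 28.8 and 24.9 CPM in wild-type libraries. All 3 5x21-OR1A1 values were above the highest wild-type value, by a gap smaller than the spread within either group. The fold change was 1.22 (95% interval 1.05 to 1.41; log2 0.28, SE 0.09), with an edgeR adjusted p of 0.167, and it did not pass. Ehmt2 (chr17:34898469-34914052, plus strand) had 147, 148 and 143 CPM in 5x21-OR1A1 libraries, against 158, 142 and 148 CPM in wild-type libraries. The groups overlapped, with both the highest and the lowest of the 6 values in wild-type libraries. The fold change was 0.978 (95% interval 0.873 to 1.10; log2 -0.03, SE 0.07), with an edgeR adjusted p of 0.866.

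Within a library, the ratio of Ehmt1 to Ehmt2 counts does not depend on how libraries are scaled. It was 0.214, 0.236 and 0.211 in 5x21-OR1A1 libraries, against 0.163, 0.202 and 0.169 in wild-type libraries. The groups were apart, with a difference of 0.31 on the log2 scale (SE 0.11). A two-sided exact permutation test gave p = 0.10, the smallest that 3 against 3 allows, and 0.300 after adjustment over the 3 paralog ratios compared. The pairs were chosen with earlier results of these data known. The difference was 0.26 to 0.41 when any 1 library was left out.

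**Figure D2:**
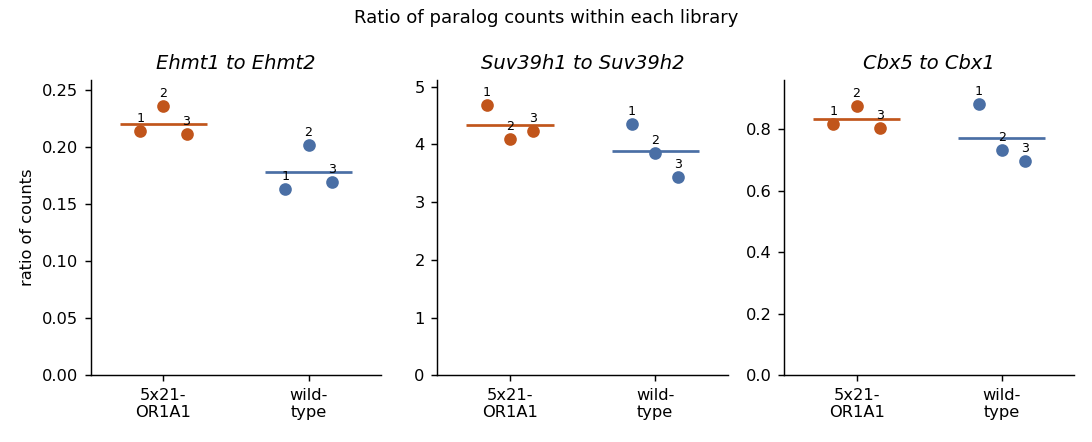
Ratio of the counts of 2 paralogs within each library for Ehmt1 to Ehmt2, Suv39h1 to Suv39h2 and Cbx5 to Cbx1; points carry the replicate number and bars are group means (n = 3 each). Only for Ehmt1 to Ehmt2 did all 5x21-OR1A1 ratios, 0.211 to 0.236, lie above all wild-type ratios, 0.163 to 0.202.

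Suv39h1 and Suv39h2 encode the writers of trimethylated H3K9 at constitutive heterochromatin. Suv39h1 (chrX:8061171-8074760, minus strand) had 15.6, 15 and 14.7 CPM in 5x21-OR1A1 libraries, against 12.7, 14.6 and 15.1 CPM in wild-type libraries. The groups overlapped, and the lowest value was that of the female wild-type library 1. The log2 fold change of 0.09 (SE 0.10, edgeR adjusted p = 0.697) was 0.14 with sex as a covariate (edgeR adjusted p = 0.530). Suv39h2 (chr2:3455815-3475031, minus strand) had 122, 107 and 94 counts in 5x21-OR1A1 libraries, against 92, 138 and 127 counts in wild-type libraries. These were 3.33, 3.67 and 3.46 CPM in 5x21-OR1A1 libraries, against 2.92, 3.79 and 4.39 CPM in wild-type libraries, so that the 5x21-OR1A1 values lay inside the wild-type range. The ratio of Suv39h1 to Suv39h2 counts was 4.68, 4.09 and 4.23 in 5x21-OR1A1 libraries, against 4.36, 3.85 and 3.43 in wild-type libraries, a log2 difference of 0.16 (SE 0.12; two-sided exact permutation test, p = 0.300, adjusted p = 0.40).

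Setdb1 encodes the methyltransferase that sets trimethylated H3K9 at retroelements and genes to which zinc finger proteins and KAP1 bring it. The gene (chr3:95323525-95357202, minus strand) had 31.7, 31.3 and 31.6 CPM in 5x21-OR1A1 libraries, against 26.7, 31.7 and 26.0 CPM in wild-type libraries. The 5x21-OR1A1 values were nearly equal and wild-type library 2 matched them, while the other two wild-type libraries were lower. The log2 fold change was 0.16 (SE 0.09, edgeR adjusted p = 0.423). Over the fits without 1 library it ran from 0.11, without wild-type library 3, to 0.26, without wild-type library 2 (edgeR adjusted p = 0.662 and 0.156).

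Kdm1a encodes LSD1, a flavin-dependent demethylase that removes methyl groups from H3K9 and H3K4. The gene (chr4:136550540-136602723, minus strand) had 115, 111 and 110 CPM in 5x21-OR1A1 libraries, against 93.2, 102 and 106 CPM in wild-type libraries. The groups were apart, with wild-type library 1 lowest. The fold change was 1.12 (95% interval 0.992 to 1.26; log2 0.16, SE 0.07), with an edgeR adjusted p of 0.327. Without wild-type library 1 the log2 value was 0.10. Luzp1, which overlaps the end of Kdm1a on the opposite strand without sharing exons, had a log2 fold change of 0.22 (edgeR adjusted p = 0.334).

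The HP1 proteins bind methylated H3K9 through a chromodomain. Cbx5, the gene of HP1 alpha (chr15:103191544-103239816, minus strand), had 53.9, 55.9 and 52.2 CPM in 5x21-OR1A1 libraries, against 49.0, 47.0 and 44.2 CPM in wild-type libraries. The groups were apart and the fold change was 1.16 (95% interval 1.03 to 1.30; log2 0.21, SE 0.07), with an edgeR adjusted p of 0.199. Hnrnpa1, an RNA-binding protein gene whose start lies 616 bases from that of Cbx5 on the other strand, had a log2 fold change of -0.10 (edgeR adjusted p = 0.765), with 42.2% of its 100-base windows also in transcripts of 11 pseudogenes. Cbx1, the gene of HP1 beta (chr11:96789127-96808640, plus strand), had 66.0, 63.8 and 64.9 CPM in 5x21-OR1A1 libraries, against 55.6, 64.0 and 63.3 CPM in wild-type libraries. The groups overlapped, with wild-type library 1 below the other 5 (log2 fold change 0.09, SE 0.08, edgeR adjusted p = 0.617). The ratio of Cbx5 to Cbx1 counts was 0.817, 0.877 and 0.804 in 5x21-OR1A1 libraries, against 0.881, 0.734 and 0.698 in wild-type libraries, and the groups overlapped (log2 difference 0.12, SE 0.11; two-sided exact permutation test, p = 0.40, adjusted p = 0.40).

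Cbx3, the gene of HP1 gamma (chr6:51470360-51483704, plus strand), had 117, 121 and 84 counts in 5x21-OR1A1 libraries, against 96, 143 and 95 counts in wild-type libraries. The groups overlapped, with a log2 fold change of 0.02 (SE 0.19, edgeR adjusted p = 0.970). Its level is uncertain. Of the 100-base windows of its longest coding transcript, as long as the reads, 23.9% were found letter for letter in transcripts of 8 other genes, 6 of them annotated pseudogenes. The 8 Cbx3 pseudogenes of the table summed to 34, 26 and 17 counts in 5x21-OR1A1 libraries, against 24, 26 and 18 counts in wild-type libraries. How reads with several matches were counted is not given in the sources used here, and their part in the low count was not tested. Hnrnpa2b1, whose start lies 466 bases from that of Cbx3 on the other strand, averaged 682 CPM in 5x21-OR1A1 and 724 CPM in wild-type tissue (log2 fold change -0.09, edgeR adjusted p = 0.733).

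Lbr encodes an inner nuclear membrane protein with a domain that binds HP1 and B-type lamins and a second one with sterol reductase activity. The gene (chr1:181815335-181843046, minus strand) had 21.3, 19.9 and 19.4 CPM in 5x21-OR1A1 libraries, against 16.6, 20.9 and 17.1 CPM in wild-type libraries. Wild-type library 2 lay inside the 5x21-OR1A1 range and the other two wild-type libraries below it. The fold change was 1.11 (95% interval 0.931 to 1.32; log2 0.15, SE 0.11), with an edgeR adjusted p of 0.545. Without wild-type library 2 the log2 value was 0.27 (edgeR adjusted p = 0.226), and without wild-type library 1 it was 0.08 (edgeR adjusted p = 0.732). The libraries do not mark strand, and 9.24% of the exonic bases of Lbr also belong to Dnah14 on the opposite strand, a gene at 0.234 CPM in 5x21-OR1A1 and 0.334 CPM in wild-type tissue. Such shared bases were 14.55% of Suv39h1, with the antisense gene Gm14820, which had at most 2 counts in any library, and 8.1% of Suv39h2, with Dclre1c.

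Per exonic length, the genes spanned more than an order of magnitude and kept 1 order in both genotypes. Ehmt2 was highest, at 26.6 ± 0.409 CPM per kb in 5x21-OR1A1 and 27.2 ± 1.43 CPM per kb in wild-type tissue (SD, n = 3 each), above 89.0% of the 18875 tested genes with a length. Kdm1a followed at 21.6 ± 0.451 CPM per kb in 5x21-OR1A1 and 19.4 ± 1.24 CPM per kb in wild-type tissue, then Cbx1 at 15.2 ± 0.258 CPM per kb in 5x21-OR1A1 and 14.3 ± 1.09 CPM per kb in wild-type tissue. Cbx5, at 6.00 ± 0.206 CPM per kb in 5x21-OR1A1 and 5.19 ± 0.267 CPM per kb in wild-type tissue, stood apart from its neighbours in the order. Setdb1 (3.80 to 4.63 CPM per kb over the 6 libraries) and Lbr (3.48 to 4.47) had overlapping ranges, as had Lbr and Ehmt1 (3.07 to 4.30). Suv39h1 (2.42 to 2.95) lay below them, and Suv39h2 (0.662 to 0.996) overlapped with Cbx3 (0.509 to 0.693), which had the lowest level by this length. Before division by length, Cbx3 and Suv39h2 averaged 3.48 and 3.49 CPM in 5x21-OR1A1 tissue and 3.42 and 3.70 CPM in wild-type tissue. Every member had counts in every library, and the smallest count was 84. Exonic lengths count all annotated exons of a gene, so a gene with a long exon that this tissue does not use is placed too low. For Cbx3 this length was 5992 bases, while its longest coding transcript has 1889. The same 2 lengths were 4410 and 4327 bases for Suv39h2, 5179 and 3028 for Kdm1a and 5489 and 4026 for Ehmt2. The order, with its highest and lowest gene, therefore depends on the length used, and the order by other lengths was not tested.

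**Figure D3:**
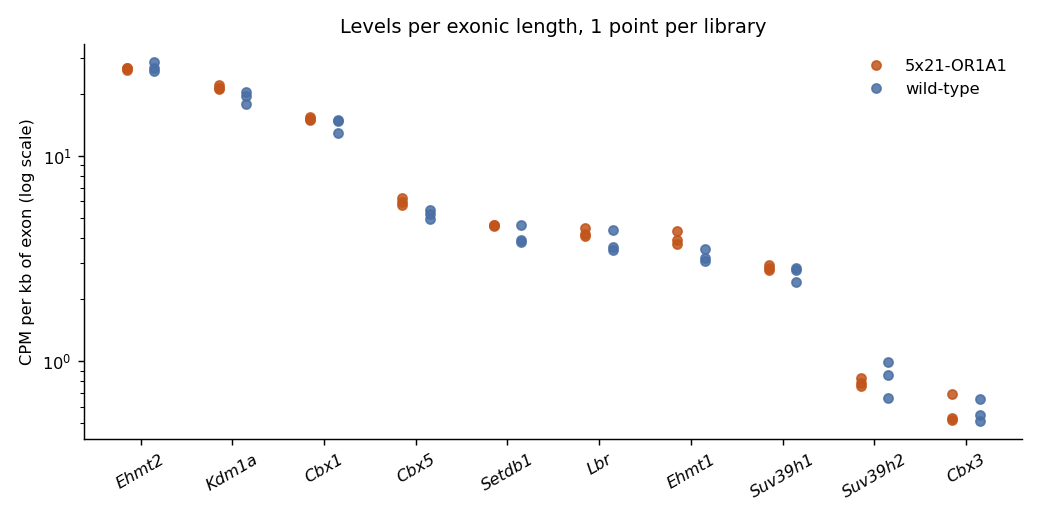
Level of each gene in CPM per kb of annotated exon, on a log axis, with 1 point per library, 5x21-OR1A1 left of wild-type. By this length, Ehmt2, Kdm1a and Cbx1 were highest, and Suv39h2 and Cbx3 lay below 1 CPM per kb in all 6 libraries.

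By the median, the 10 genes varied less within groups than all genes tested. The coefficient of variation over 3 libraries had a median of 3.23% in 5x21-OR1A1 and 8.20% in wild-type libraries for the 10 genes. For all genes tested the median was 8.52% in 5x21-OR1A1 and 12.6% in wild-type libraries. All genes tested were not matched to the 10 for level, and the part of counting in this difference was not tested. Cbx3 lay above the median of all genes in both groups, at 16.8% in 5x21-OR1A1 and 13.3% in wild-type libraries. Suv39h2 and Lbr lay above it among wild-type libraries. The coefficient of variation was larger among wild-type libraries in 9 of the 10 genes, Cbx3 being the exception, and in 69.2% of all genes tested. Setdb1 varied by 0.719% among 5x21-OR1A1 libraries, less than the 3.23% that counting alone gives, and by 11.1% among wild-type libraries. Wild-type library 1 held the lowest value of 6 of the 10 genes, wild-type library 3 of 3 and wild-type library 2 of 1, and no 5x21-OR1A1 library held the lowest value of any. Of all genes tested, 17% were lowest in wild-type library 1 and 24.7% in wild-type library 2, and 40.1% were lowest in a 5x21-OR1A1 library. Without wild-type library 1 the median log2 fold change of the 10 genes was 0.05 in place of 0.12. That library was the only female one of its group, so its sex and its other traits cannot be told apart here. With sex as a covariate the median was 0.16.

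Markers of neuronal stages differed between genotypes in the same libraries. They were read from 112 marker genes in 12 lists, of which 0 were at 0 in any library. Of all 19267 genes tested edgeR called 100 higher and 423 lower, and DESeq2 310 higher and 902 lower. Of 14 markers of mature olfactory neurons 6 were lower and 0 higher by edgeR in 5x21-OR1A1 tissue (median log2 fold change -0.68), all 6 among the 12 that DESeq2 called lower, and their summed level was 13586 to 15024 CPM in 5x21-OR1A1 and 19985 to 26252 CPM in wild-type libraries. Of 12 markers of immature neurons 4 were higher by edgeR and 7 by DESeq2, and 1, Stmn4, was lower by both (median 0.42), with summed levels of 2005 to 2176 CPM in 5x21-OR1A1 and 1601 to 1847 CPM in wild-type libraries. Of 10 progenitor markers 4 were higher by edgeR and 8 by DESeq2 (median 0.50), at 337 to 380 CPM in 5x21-OR1A1 and 244 to 263 CPM in wild-type libraries. Of 16 markers of dividing cells 3 were higher by edgeR and 9 by DESeq2 (median 0.56), at 191 to 211 CPM in 5x21-OR1A1 and 140 to 151 CPM in wild-type libraries. No marker of horizontal basal cells, sustentacular cells, glands, ciliated cells, ensheathing glia, immune cells, erythrocytes or endothelial cells and fibroblasts was called by edgeR or limma-voom, while DESeq2 called 3 sustentacular markers lower and the ciliated marker Dnah5 higher, with list medians from -0.44 for erythrocytes to 0.33 for endothelial cells and fibroblasts. Of these lists, the summed level of ciliated cell markers alone had groups apart, at 619 to 635 CPM in 5x21-OR1A1 and 495 to 614 CPM in wild-type libraries. The gland marker Bpifb9b ran from 6.86 CPM in wild-type library 1 to 8805 CPM in 5x21-OR1A1 library 1. Its groups overlapped (log2 4.67, edgeR adjusted p = 0.197). Estimates were above 0 for 8 of 8 endothelial and fibroblast markers and 0 of 6 erythrocyte markers, against 52.9% of all genes tested. The part of these shifts in the values of the 10 genes was not tested.

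Scaling to cell markers moved the 10 genes together with all genes tested. When libraries were scaled to the summed mature neuron markers, the median of all genes was 0.72 and that of the 10 genes 0.83, a distance of 0.12 before rounding. All 10 were then called higher, as were 76.5% of all genes tested. When they were scaled to progenitor and dividing cell markers, the median of all genes was -0.46 and that of the 10 genes -0.36, at a distance of 0.11. Called lower were 8 of the 10, all but Ehmt1 and Cbx3, and 57.5% of all genes tested. Under TMM scaling the distance was also 0.11, so these counts follow from the shift of all genes and say nothing particular of the 10.

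**Figure D4:**
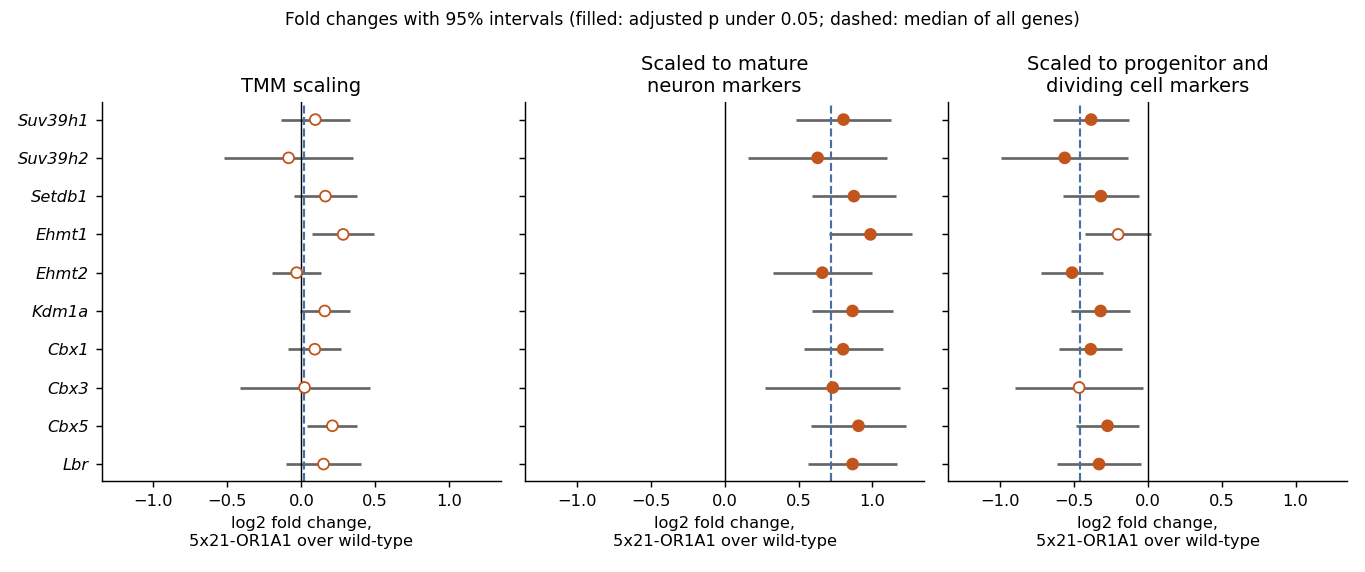
Log2 fold change of each gene, 5x21-OR1A1 over wild-type, with its 95% interval, under TMM scaling, scaling to mature neuron markers and scaling to progenitor and dividing cell markers; filled points have an edgeR adjusted p under 0.05 and the dashed line is the median of all genes tested (0.02, 0.72 and -0.46). The genes moved with the dashed line, with 0 called in the first panel, 10 higher in the second, where 76.5% of all genes were, and 8 lower in the third, where 57.5% of all genes were.

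The wider set of chromatin genes was read from 11 lists of 99 genes, of which 96 were tested. Of these, 4 rose and 1 fell, which is 5.21% against 2.71% of all genes tested, and the median log2 fold change was 0.08. DESeq2 called 15 of them and limma-voom 5, and with sex as a covariate edgeR called 1, Insm1. Of all 19267 genes tested these fits called 1212, 503 and 289. At an unadjusted edgeR p under 0.05 stood 27 of the 96, or 28.1%, against 17.1% of all genes tested. Atf7ip2, Gfi1 and Adnp had too few counts to test. For Adnp, with 10 counts at most, 88.9% of the 100-base windows of its longest coding transcript were also in transcripts of 1 other gene, and the part of such reads in its count was not tested.

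Partners of the methyltransferases held none of the calls. Of 8 partners and relatives of SETDB1, 7 were tested, with 0 called by edgeR, DESeq2 or limma-voom and 0 at an unadjusted p under 0.05, with a median log2 fold change of 0.12. Mphosph8 and Morc2a, of the HUSH complex and its effector, had log2 fold changes of 0.12 each (edgeR adjusted p = 0.578 and 0.601). Of 10 partners of G9a and other H3K9 proteins 0 were called by edgeR and limma-voom and 2 by DESeq2, with a median of 0.07. Under an unadjusted edgeR p of 0.05 lay 17.1% of all genes tested and, on this list, the same 2. These were Uhrf1, which binds methylated H3K9 and hemimethylated DNA during replication, at 11.1 ± 1.06 CPM in 5x21-OR1A1 and 7.72 ± 0.239 CPM in wild-type tissue (SD, n = 3 each; log2 0.53, edgeR adjusted p = 0.0628), and Cdyl2, a chromodomain protein, with a log2 value of 1.10 (edgeR adjusted p = 0.0856).

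Among erasers and their complexes, Kdm4a and Insm1 rose by edgeR. Of 12 H3K9 demethylases Kdm4a, which removes trimethylation, had 62.1, 66.1 and 57.5 CPM in 5x21-OR1A1 libraries, against 49.1, 47.1 and 45.0 CPM in wild-type libraries (log2 fold change 0.40, SE 0.08, edgeR adjusted p = 0.0450), and the list had a median of 0.07. The groups were apart. In each fit without 1 library the edgeR call was lost, with log2 values of 0.35 to 0.44. With libraries scaled to progenitor and dividing cell markers the value was -0.09, which is 0.38 above the median of all genes, as it was under TMM scaling. Such scaling moves all genes together by construction, and the part of cell types in the value was not tested. Of 13 tested genes of the LSD1 corepressor list Insm1, a zinc finger factor of neuronal precursors that binds LSD1, had 63.6, 71.2 and 69.6 CPM in 5x21-OR1A1 libraries, against 27.8, 39.2 and 36.9 CPM in wild-type libraries (log2 0.97, SE 0.13, edgeR adjusted p = 0.00896), and the list had a median of 0.16. All 5x21-OR1A1 values were above all wild-type values. The call was lost without 5x21-OR1A1 library 3 (log2 0.96, edgeR adjusted p = 0.0531). DESeq2 called Hr besides Kdm4a, and Hdac2, Rcor1 and Rcor2 besides Insm1, all higher, while limma-voom called Kdm4a and Insm1 alone in these lists. Rcor2 is also on the progenitor list and was counted there too. The summed level of the LSD1 corepressor list was 473 to 513 CPM in 5x21-OR1A1 and 391 to 412 CPM in wild-type libraries.

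Among HP1 partners and other repressive systems, Hells and Ezh2 rose and Cbx8 fell by edgeR. Hells, a chromatin remodeller needed for DNA methylation, was the 1 edgeR call among 11 tested HP1 partners, at 5.70, 5.63 and 6.15 CPM in 5x21-OR1A1 libraries and 3.33, 3.41 and 2.73 CPM in wild-type libraries (log2 0.88, SE 0.15, edgeR adjusted p = 0.0259; list median 0.14). Ezh2, the H3K27 methyltransferase of Polycomb repressive complex 2 and also on the progenitor list, was the 1 edgeR call among 7 genes of that complex, at 26.9, 26.9 and 22.9 CPM in 5x21-OR1A1 libraries, against 17.8, 18.6 and 18.7 CPM in wild-type libraries (log2 0.48, SE 0.09, edgeR adjusted p = 0.0389; list median 0.09). Cbx8, a chromobox paralog of the HP1 genes that belongs to Polycomb repressive complex 1, had 41.4, 44.0 and 38.3 CPM in 5x21-OR1A1 libraries, against 52.0, 64.3 and 58.8 CPM in wild-type libraries (log2 -0.50, SE 0.10, edgeR adjusted p = 0.0407), and its list of 5 had a median of -0.14. The groups were apart for each of the 3. DESeq2 called Chaf1b and Incenp besides Hells and Jarid2 besides Ezh2, all higher, while limma-voom called the same 3 genes as edgeR in these lists. Scaling to cell markers moves all genes together by construction. Relative to the median of all genes it therefore left these 3 about where TMM scaling had them, and the part of cell types in their values was not tested. Against progenitor and dividing cell markers Hells was at 0.40 (edgeR adjusted p = 0.0860) and Ezh2, itself among those markers, at -0.00586, which is 0.86 and 0.46 above a median of all genes of -0.46. Against mature neuron markers Cbx8 was at 0.21, where the median of all genes was 0.72. The call of Ezh2 was lost in each fit without 1 library (log2 0.44 to 0.55) and that of Cbx8 in each but the one without wild-type library 1 (-0.58 to -0.42). That of Hells was lost without wild-type library 3 or any 5x21-OR1A1 library (0.79 to 0.94).

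Genes of the nuclear envelope beside Lbr were not called. Of 15 lamins and inner nuclear membrane proteins 0 passed the threshold with edgeR, DESeq2 or limma-voom, with a median of 0.00374. Under an unadjusted edgeR p of 0.05 lay 5 of them, against 17.1% of all genes tested. Lemd2, a LEM-domain protein, had a log2 value of -0.23 (edgeR adjusted p = 0.136), and Lmnb1, the gene of lamin B1, to which the lamin B receptor binds, had 0.34 (edgeR adjusted p = 0.146). The sterol reductases related to the lamin B receptor, Tm7sf2 and Dhcr7, had log2 values of -0.06 and 0.13 (edgeR adjusted p = 0.705 and 0.711). The 3 H4K20 methyltransferases tested gave 0 calls by edgeR, DESeq2 or limma-voom and 0 at an unadjusted p under 0.05, with a median of 0.04. Among them Kmt5b, which acts downstream of H3K9 methylation at heterochromatin, had a log2 value of 0.15 and Kmt5a, which acts in the cell cycle, of -0.05 (edgeR adjusted p = 0.413 and 0.805). Of 11 genes of DNA methylation 0 were called by edgeR and limma-voom and 1 by DESeq2, with a median of 0.15. Under an unadjusted edgeR p of 0.05 lay 4 of the 11, against 17.1% of all genes tested. Tet1 and Tet3, which oxidise methylated cytosine, had log2 values of 0.65 and 0.44 (edgeR adjusted p = 0.133 and 0.232), and Tet1 was the gene that DESeq2 called.

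**Figure D5:**
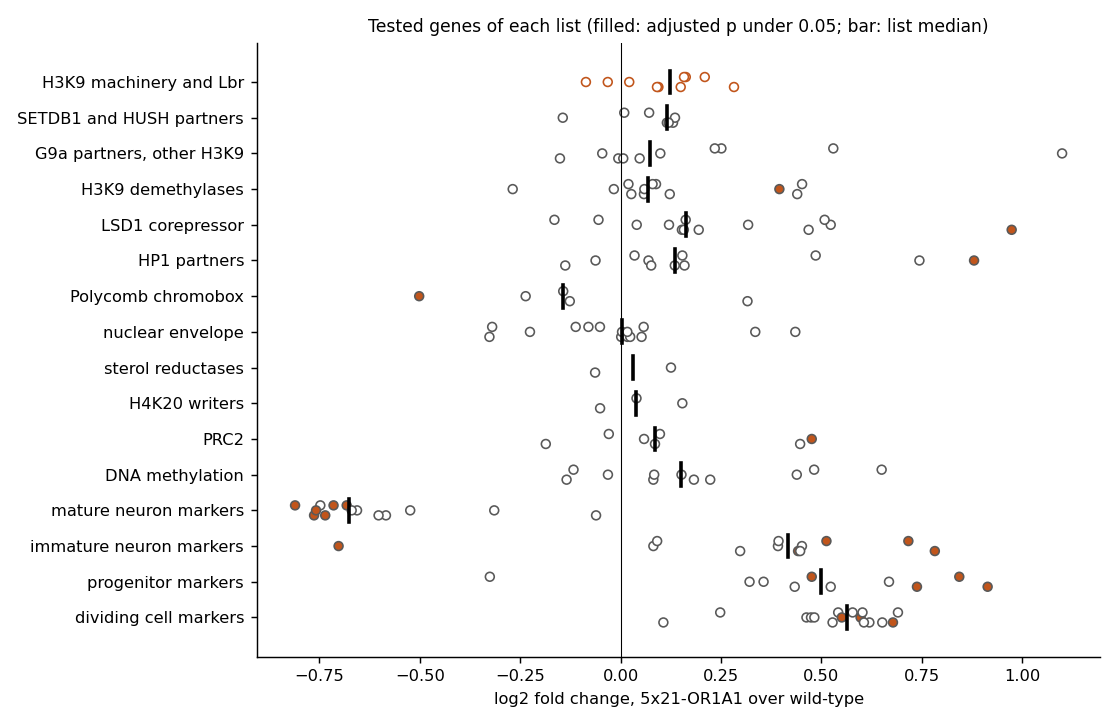
Log2 fold change, 5x21-OR1A1 over wild-type, of every tested gene of the 10 heterochromatin genes, the 11 lists of related chromatin genes and 4 lists of neuron, progenitor and dividing cell markers; filled points have an edgeR adjusted p under 0.05 and bars are list medians. The 10 genes lay between -0.09 and 0.28, between the medians of mature neuron markers (-0.68) and dividing cell markers (0.56).

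The genes most like the members in their course over the 6 libraries were found by the root mean square difference of centred log2(CPM + 1) among 16756 other genes of at least 1 CPM. For the mean profile of the 10 genes they included Pcgf6 (0.0163) and Tspan14 (0.0203). That profile ran only from -0.13 in wild-type library 1 to 0.09 in 5x21-OR1A1 library 2. Genes that change little lie near it for that reason alone, so nearness does not show that genes vary together. The nearest gene was Hunk for Ehmt1 (0.0226), Nmt2 for Cbx5 (0.0123), Lrrc42 for Kdm1a (0.0205), Wdr48 for Setdb1 (0.0208), Katnbl1 for Cbx1 (0.00870), G3bp1 for Suv39h1 (0.0101), Stoml2 for Ehmt2 (0.0202), Gm4900 for Lbr (0.0257), Ncoa3 for Cbx3 (0.0281) and Dydc1 for Suv39h2 (0.0289).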

How the data were processed

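The samples were dissected olfactory epithelium; poly-A RNA was sequenced from nonstranded TruSeq libraries with single-end 100-bp reads, per the labels' protocols. The deposited values are raw read counts per gene symbol, with 27506217 to 35804712 counts in a library. The submitters' processing notes name TopHat2 2.1.1, HTSeq 0.9.1 and GRCm38.p5. No source used here gives the annotation or the counting options.

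The test was edgeR (4.0.16, R 4.3.3) with TMM scaling, its default filter (count 10, total 15) and a quasi-likelihood fit on genotype. Benjamini-Hochberg adjustment ran over all 19267 genes kept, and calls have an adjusted p under 0.05. The SE is the log2 fold change over the square root of F. The procedure was checked on simulated data. Alternatives used DESeq2 1.42.0, limma-voom (limma 3.58.1), other scalings and filters, sex, the replicate number and leaving out each library. Same-numbered libraries of the 2 groups did not deviate together and were not paired, though so few libraries cannot show that the numbers carry no pairing. Positions and lengths are from GENCODE M21 (GRCm38), promoters from RefSeq (GRCm38.p6), and all 10 symbols matched both. Named were all 10 genes, the called genes or otherwise up to 2 of lowest p in each related list, marker genes, nearest profiles (1 of which is not reported here) and overlapping or divergent genes. The members and lists were chosen with earlier results of these data known.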

Additional observations from a re-analysis of the deposited data

How the results depend on the processing

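Of the 10 genes 0 were called under each scaling to library totals or size factors, with DESeq2, limma-voom, either filter, the replicate block, sex as a covariate and each library left out; the calls came only from scaling to cell markers. Their median stayed between 0.05 and 0.16 in those fits, 0.05 without wild-type library 1. Leaving out the 2 genes under 150 counts, chosen after seeing the data, gave 0.15.

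Scaled to mature neuron markers, 10 members, 91 related genes and 14999 of all genes were called and the members' median was 0.83; Suv39h2 turned to 0.63, Ehmt2 to 0.66, Cbx8 to 0.21, Lemd2 to 0.48, Tm7sf2 to 0.64 and Kmt5a to 0.66. Scaled to progenitor and dividing cell markers, 8 members, 67 related genes and 11148 of all genes were called and the median was -0.36; Suv39h1 turned to -0.38, Setdb1 to -0.32, Ehmt1 to -0.20, Kdm1a to -0.32, Cbx1 to -0.39, Cbx3 to -0.46, Cbx5 to -0.27, Lbr to -0.33, Mphosph8 to -0.36, Morc2a to -0.36, Kdm4a to -0.09, Lmnb1 to -0.15, Dhcr7 to -0.36, Kmt5b to -0.33, Ezh2 to -0.00586 and Tet3 to -0.05. Both scalings shift all genes by construction.

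Related genes called, 5 in all, numbered 2 with library totals alone, 3 with the replicate block, 1 (Insm1) with sex as a covariate, 15 with DESeq2 and 1 at an adjusted p under 0.01. All genes called, 523, numbered 289 with sex as a covariate, 1212 with DESeq2 and 154 at that threshold; the cause was not tested. Same-numbered libraries correlated at -0.375, 0.123 and -0.0723 over 19267 genes, and differently numbered ones at up to 0.355. The labels do not say whether the numbers pair libraries, and these values cannot settle it. The replicate block gave 377 calls. Among related genes it called Insm1, Rcor1 and Tet3 (0.45, edgeR adjusted p = 0.0492) and not Kdm4a, Hells, Cbx8 and Ezh2, whose values were 0.39, 0.89, -0.50 and 0.47 (edgeR adjusted p = 0.0710, 0.0851, 0.0562 and 0.0877). Leaving out 1 library gave 0 to 3 related genes, 150 to 626 of all genes and medians of the members of 0.05 to 0.16. It turned Ehmt2 to 0.00671 and Cbx3 to -0.06 (without wild-type library 1), Kmt5a to 0.03 (without wild-type library 2), Suv39h2 to 0.05 and Cbx3 to -0.00790 (without wild-type library 3), and Cbx3 to -0.12 (without 5x21-OR1A1 library 2). The range was -0.23 to 0.05 for Suv39h2 and -0.12 to 0.14 for Cbx3. With 84 to 143 counts a library, Cbx3 and Suv39h2 have the widest intervals.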
